A study of Danio rerio with 6 samples.

Results

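The glutathione S-transferase genes described here are 10 genes of the zebrafish, gstp1 and gstp2 (pi class), gsto1 and gsto2 (omega), gstm.1 (mu), gstt1a and gstt1b (theta), gstk1 (kappa), gstr (rho) and gstz1 (zeta). They were taken by gene symbol from a table of 32057 genes, and each of the 10 symbols matched 1 row. All 10 are annotated as protein-coding. Their transcripts were measured by poly(A) RNA sequencing of zebrafish embryo heads collected at 2 days post-fertilization. The treated embryos had been in 500 µg/L 6PPD, an antioxidant put into tire rubber, since 10 hours post-fertilization, and the controls had been in the solvent DMSO for that time. Each group had 3 replicates that the labels call biological, each a pool of 150 dissected heads, and all embryos of both groups also received the pigment inhibitor PTU at 0.003% from 24 hours. The labels name no strain. The study's title names oxidative stress and ferroptosis, an iron-dependent cell death driven by oxidized lipids.

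Glutathione S-transferases join the tripeptide glutathione to electrophilic compounds, which makes these easier to export, and some members reduce peroxides or oxidized ascorbate with glutathione. The classes differ in structure, location and substrates. In vertebrates several of these genes, the pi class among them, are known targets of the transcription factor Nrf2, which is released from its inhibitor Keap1 by electrophiles and oxidants.

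Levels are given in FPKM, sequenced fragments scaled by gene length and by the mapped fragments of the library, so that levels of different genes can be compared. The table holds no fragment counts and the depth of the libraries is unknown, so counting error cannot be given for the low members. Differences were tested with limma on log2(FPKM + 1) over the 15320 genes whose mean level reached 1 FPKM, and a gene was called where the adjusted p, corrected over all of these, was under 0.05. Under this rule 2.26% of the tested genes were called higher in 6PPD and 1.15% lower, and the counts of called list genes below stand beside these shares. Every fold change on the log2 scale below is on log2(FPKM + 1), which understates the change of genes near 1 FPKM.

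The labels name the tissue as brain, while whole heads were dissected, and the libraries carried both neural and other transcripts. All 12 neuron markers examined passed the filter, with a summed level of 1169 to 1237 FPKM in controls and 1171 to 1242 FPKM in treated heads. Of these 2 were called higher, elavl3 (log2 fold change 0.64) and snap25a (0.40), and 0 lower (limma adjusted p = 0.0324 and 0.0328). The median log2 fold change of the 12 was 0.02, and 6 of the values were positive. The related genes elavl4 (-0.34) and snap25b (-0.23) lay in the other direction and were not called. Of 11 eye and lens markers, with sums of 1714 to 2373 FPKM in controls and 1559 to 2335 FPKM in treated heads, 0 were called higher and 2 lower, the rod genes rho (-1.01) and gnat1 (-0.75; limma adjusted p = 0.00354 and 0.0377). The median log2 fold change of these 11 was -0.17. The 2 positive values were those of cryaa (0.53) and mipa (0.12), and neither gene was called. The 14 epidermis and periderm markers had sums of 5795 to 10348 FPKM in controls and 5110 to 6561 FPKM in treated heads, with 2 called lower (agr1 and cldne), 0 higher and a median log2 fold change of -0.39. The 1 positive value was that of tp63 (0.30), which was higher in every 6PPD library but was not called (limma adjusted p = 0.154). The highest sum of the 14 markers was in DMSO replicate 1. Without DMSO replicate 3, 5 of them were called lower, where 7.4% of all tested genes were called either way. Leaving out any other single library left 0 of them called by limma, where 1.11% to 2.98% of all tested genes were called. Of the neuron and eye genes, rho kept its call in all 6 such fits, while elavl3 and gnat1 kept it in 2 and snap25a in 1. The calls of snap25a and cldne were also lost with the replicate number as a block. The part of these tissues in the values of the transferase genes was not tested. Of 13 liver markers, 11 lay under the filter and the defining gene fabp10a was at 0 in all 6 libraries. Their sum was 1.94 to 3.14 FPKM in 5 libraries and 20.2 FPKM in DMSO replicate 3. Most of the latter came from the apolipoprotein genes apoa1a (10.3 FPKM) and apoa2 (7.18 FPKM), and tfa was next at 1.32 FPKM. The tissue source of these transcripts was not tested. DMSO replicate 3 also stood apart on the first principal component (43.5% of the variance), at -4.70 against -20.6 and -22.8 for the other controls and 15.3 to 16.9 for the 6PPD libraries. In bulk tissue, more cells of a type and more RNA per cell cannot be told apart.

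Of the 10 genes, 1 rose in 6PPD heads, the pi class gene gstp1, and 0 fell. Among all tested genes 2.26% were called higher and 1.15% lower, 3.41% together. In both pi and both omega genes every 6PPD library lay above every DMSO library, while gstk1 was the 1 member for which every 6PPD library lay below every DMSO library. The remaining 5 members overlapped between the groups. Over all tested genes, 17.1% separated upward in this way and 9.18% downward. Among the members that separated upward, gsto1 passed the filter only through the treated group, where it was higher. Its 6PPD replicate 2 (0.845 FPKM) lay just above its highest control (0.796 FPKM). All 10 members passed the filter, with a median log2 fold change of 0.04, beside 0.06 for all tested genes, and 6 of the 10 values were positive. At an unadjusted p under 0.05 in limma, 3 members were higher (gstp1, gstp2 and gsto2) and 1 was lower (gstk1), where 13.4% of tested genes were higher and 6.93% lower.

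**Figure D1:**
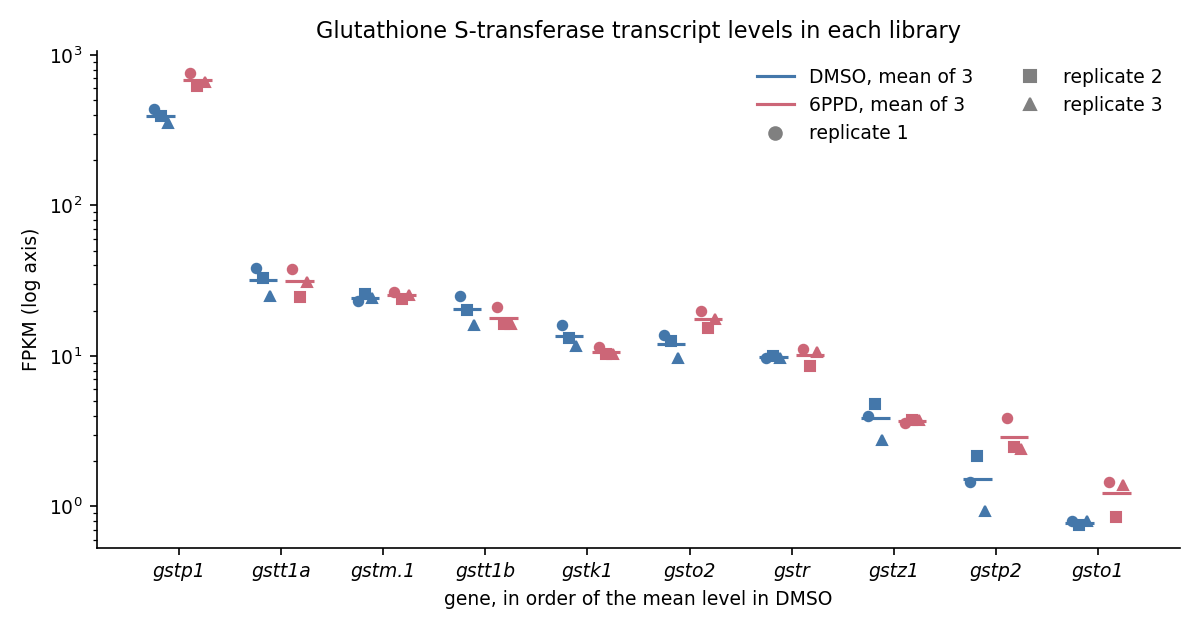
FPKM (log axis) of each of the 10 genes in each library, with circles, squares and triangles for replicates 1, 2 and 3, DMSO in blue and 6PPD in red, and a line at each group mean of 3. The points of gstp1 run from 355 to 435 FPKM in controls and from 623 to 755.5 FPKM in treated heads, and all other members lie below 40 FPKM.

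The pi class enzyme is one of the most abundant glutathione transferases of many vertebrate tissues. The gene gstp1 (ENSDARG00000104068, GRCz11 chromosome 14, 3507326 to 3514055, plus strand) measured 435, 393 and 355 FPKM in DMSO replicates 1, 2 and 3. In 6PPD replicates 1, 2 and 3 it measured 755.5, 623 and 658 FPKM. The lowest treated library lay well above the highest control library. The mean rose from 394 ± 39.9 FPKM to 679 ± 68.5 FPKM (SD, n = 3 per group), 1.72 times the control level. The log2 fold change was 0.78 ± 0.11 (SE; 95% interval 0.53 to 1.04), with a limma adjusted p of 0.00836. The spread within each group was 10.1% of its mean. By mean level, gstp1 ranked 173rd of all genes in the table in DMSO and 114th in 6PPD. An exact permutation test over the libraries gave p = 0.1 (two-sided), the smallest value that 3 against 3 allows. Leaving out each library in turn, gstp1 stayed called, with log2 fold changes of 0.70 to 0.86 and limma adjusted p of 0.00931 to 0.0453, and without DMSO replicate 3 it was at 0.71 (adjusted p = 0.0144). With no filter on low values, when 13 genes were called higher and 13 lower, its adjusted p was 0.071 in limma.

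The second pi gene, gstp2 (ENSDARG00000103019, chromosome 14, 3495542 to 3503708, plus strand), ends 3617 bases before gstp1 begins and was a minor transcript. It measured 1.45, 2.17 and 0.929 FPKM in DMSO replicates 1, 2 and 3. In 6PPD replicates 1, 2 and 3 it measured 3.85, 2.48 and 2.41 FPKM. The groups did not overlap, but the controls varied by 41.2% of their mean. The means were 1.52 ± 0.625 and 2.91 ± 0.81 FPKM, and the log2 fold change was 0.65 ± 0.21 (95% interval 0.18 to 1.11, limma adjusted p = 0.124). In the 6 libraries gstp1 stood at 181 to 383 times the level of gstp2. Fragments could be divided between these copies, and their sequence similarity was not examined, so the value of gstp2 is uncertain. On the other side of gstp1 lies fnta, a farnesyltransferase subunit gene, 2511 bases away, where controls had 12.1 ± 0.917 FPKM and treated heads 12.3 ± 3.93 FPKM (limma adjusted p = 0.981).

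Omega class enzymes use a cysteine in their active site and, in mammals, reduce dehydroascorbate with glutathione. The gene gsto2 (ENSDARG00000033285, chromosome 13, 25396896 to 25402772, plus strand) measured 13.9, 12.5 and 9.72 FPKM in DMSO replicates 1, 2 and 3. In 6PPD replicates 1, 2 and 3 it measured 19.8, 15.3 and 17.6 FPKM. All treated libraries lay above all controls, and the closest pair was DMSO replicate 1 and 6PPD replicate 2. The means were 12.0 ± 2.12 and 17.6 ± 2.23 FPKM, a ratio of 1.46, and the log2 fold change of 0.51 ± 0.14 (95% interval 0.21 to 0.82) missed the threshold (limma adjusted p = 0.0782). It passed after rescaling to TPM (0.58, limma adjusted p = 0.0437) and with library weights (0.51, limma adjusted p = 0.0407). Without DMSO replicate 3, which had its lowest value, the log2 fold change was 0.38 (limma adjusted p = 0.0822).

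Its neighbour gsto1 (ENSDARG00000022183, chromosome 13, 25380432 to 25389051, plus strand) ends 7844 bases before gsto2 and was the lowest of the 10 genes. It measured 0.795, 0.75 and 0.796 FPKM in DMSO replicates 1, 2 and 3. In 6PPD replicates 1, 2 and 3 it measured 1.45, 0.845 and 1.39 FPKM. The controls were close together, 6PPD replicate 2 lay near them, and the other treated libraries lay higher. With a DMSO mean of 0.78 ± 0.0265 FPKM it passed the filter only through the treated group (1.23 ± 0.333 FPKM). The log2 fold change was 0.31 ± 0.15 (95% interval -0.03 to 0.65, limma adjusted p = 0.278). The ratio of gsto2 to gsto1 was 15.5 ± 2.84 in DMSO and 14.8 ± 2.9 in 6PPD (SD, n = 3), with overlapping groups (exact permutation p = 1.0). The gene after gsto2, itprip, had a mean of 1.56 ± 0.149 FPKM in controls and 1.73 ± 0.395 FPKM in treated heads (limma adjusted p = 0.766).

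Kappa class enzymes are found in mitochondria and peroxisomes and have a fold unlike that of the cytosolic classes. The gene gstk1 (ENSDARG00000056510, chromosome 16, 32009203 to 32013929, minus strand) measured 16.0, 13.1 and 11.6 FPKM in DMSO replicates 1, 2 and 3. In 6PPD replicates 1, 2 and 3 it measured 11.4, 10.3 and 10.3 FPKM. The groups did not overlap, but DMSO replicate 3 and 6PPD replicate 1 nearly met. The means were 13.6 ± 2.25 and 10.7 ± 0.667 FPKM, and the log2 fold change was -0.31 ± 0.12 (95% interval -0.58 to -0.04, limma adjusted p = 0.185). It was not called in any of the 17 alternative settings, where the log2 fold change ran from -0.41 to -0.19.

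**Figure D2:**
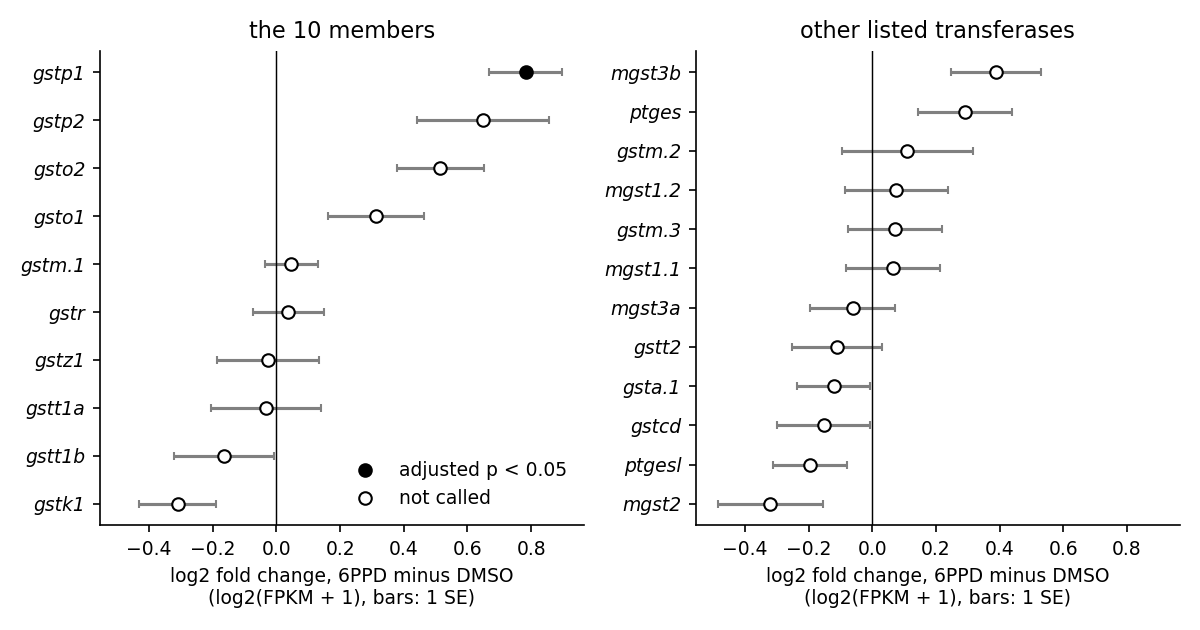
Log2 fold change, 6PPD minus DMSO, on log2(FPKM + 1) with bars of 1 SE from limma (n = 3 per group), for the 10 genes on the left and the 12 tested genes of the list of other transferases on the right. Filled points have an adjusted p under 0.05, which holds for gstp1 (0.78) alone, and the others run from -0.31 to 0.65 on the left and from -0.32 to 0.39 on the right.

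The theta, mu, rho and zeta genes were not called, and their groups overlapped. Theta enzymes are regarded as an old class of the cytosolic transferases. The gene gstt1a (ENSDARG00000042428, chromosome 8, 30787111 to 30791266, minus strand), the second most abundant member, measured 38.1, 32.8 and 25.1 FPKM in DMSO replicates 1, 2 and 3 and 38.0, 24.8 and 31.1 FPKM in 6PPD replicates 1, 2 and 3. Both groups covered nearly the same range. Its log2 fold change was -0.03 ± 0.17 (95% interval -0.42 to 0.35, limma adjusted p = 0.928), and its sign changed after rescaling to TPM (0.016). The gene gstt1b (ENSDARG00000017388, chromosome 21, 15713097 to 15720534, plus strand) measured 25.0, 20.1 and 16.0 FPKM in DMSO replicates 1, 2 and 3 and 21.2, 16.2 and 16.3 FPKM in 6PPD replicates 1, 2 and 3. DMSO replicate 1 was the highest and DMSO replicate 3 the lowest of the 6 libraries (log2 fold change -0.17 ± 0.16, 95% interval -0.52 to 0.19, limma adjusted p = 0.578). The ratio of gstt1a to gstt1b lay between 1.52 and 1.91 in all 6 libraries. 

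Mu class enzymes conjugate a broad range of electrophiles. The gene gstm.1 (ENSDARG00000042533, chromosome 8, 25295160 to 25297928, plus strand) measured 23.0, 25.9 and 24.2 FPKM in DMSO replicates 1, 2 and 3 and 26.4, 24.0 and 25.3 FPKM in 6PPD replicates 1, 2 and 3. This was the narrowest interval of a difference among the members: the log2 fold change was 0.05 ± 0.08, with a 95% interval of -0.14 to 0.23 (limma adjusted p = 0.771). It turned to -0.016 after median-ratio scaling. Its tandem neighbour gstm.2, 1140 bases away, averaged 3.15 ± 1.05 FPKM in controls and 3.44 ± 0.925 FPKM in treated heads. Fragments of such tandem copies may also be divided between them.

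The rho class is known from fishes. The gene gstr (ENSDARG00000042620, chromosome 19, 770300 to 776076, plus strand) measured 9.69, 9.94 and 9.68 FPKM in DMSO replicates 1, 2 and 3 and 11.1, 8.53 and 10.7 FPKM in 6PPD replicates 1, 2 and 3. The SD of the controls was 1.53% of their mean, and the treated libraries lay on both sides of them (log2 fold change 0.04 ± 0.11, 95% interval -0.21 to 0.29, limma adjusted p = 0.871). Its sign changed after median-ratio scaling (-0.023), quantile normalization (-0.017) and cyclic loess (-0.022).

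The zeta enzyme, maleylacetoacetate isomerase, catalyses a step of tyrosine breakdown. The gene gstz1 (ENSDARG00000027984, chromosome 17, 45106424 to 45114519, plus strand) measured 4.0, 4.81 and 2.77 FPKM in DMSO replicates 1, 2 and 3 and 3.60, 3.73 and 3.76 FPKM in 6PPD replicates 1, 2 and 3. The treated libraries lay inside the range of the controls (log2 fold change -0.03 ± 0.16, 95% interval -0.38 to 0.33, limma adjusted p = 0.936). Its sign changed after rescaling to TPM (0.019). Among the 5 tested genes of tyrosine breakdown, gstz1 included, 1 rose and 0 fell. This was fah, the fumarylacetoacetate hydrolase that acts on the product of gstz1, with 4.23 ± 0.211 FPKM in controls and 6.95 ± 1.16 FPKM in treated heads (0.60 ± 0.13 on the log2 scale, limma adjusted p = 0.0407). With 1 library left out, fah stayed called without DMSO replicate 3 or 6PPD replicate 2 and lost the call in the other 4 fits (limma adjusted p 0.035 to 0.163 over all 6). Its adjusted p was also 0.0509 after cyclic loess and 0.0519 without the intensity trend. The phenylalanine hydroxylase gene pah was at -0.34 on that scale (limma adjusted p = 0.0722), and its adjusted p was 0.0447 after median-ratio scaling, 0.0467 after quantile normalization and 0.0475 after cyclic loess.

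By level, gstp1 far exceeded the other members in both groups. Its DMSO mean was 12.3 times that of gstt1a, the next in order, and its 6PPD mean 21.7 times. In DMSO the order was gstp1, gstt1a, gstm.1, gstt1b, gstk1, gsto2, gstr, gstz1, gstp2 and gsto1. The neighbours from gstt1a to gstr overlapped in their ranges over the 3 control libraries, so their order is not separated. The steps from gstp1 to gstt1a, gstr to gstz1, gstz1 to gstp2 and gstp2 to gsto1 did not overlap. In 6PPD the order was the same except that gsto2 stood above gstk1, with ranges that did not overlap there (gsto2 at 15.3 FPKM or more, gstk1 at 11.4 FPKM or less).

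Summed over the 10 genes, the level was 513 ± 55.4 FPKM in controls and 799.6 ± 83.7 FPKM in treated heads (SD, n = 3). Without gstp1 the sum was 118 ± 15.9 FPKM in controls and 121 ± 15.4 FPKM in treated heads, with overlapping groups. The part of gstp1 in the summed level was 76.3% to 77.9% in the DMSO libraries and 84.7% to 85.4% in the 6PPD libraries. Of the summed FPKM of all genes, gstp1 made up 0.0865% ± 0.00521 in DMSO and 0.155% ± 0.0156 in 6PPD.

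Set against other members within each library, which removes a common scale of the library, gstp1 was higher in every 6PPD library relative to all but gstp2 and gsto1. Its ratio to gstk1 was 27.1, 30.1 and 30.6 in DMSO replicates 1, 2 and 3 and 66.0, 60.6 and 64.0 in 6PPD replicates 1, 2 and 3. Its ratio to gstt1b went from 19.7 ± 2.4 to 38.1 ± 2.29, and its ratio to gstm.1 from 16.2 ± 2.3 to 26.9 ± 1.49. The ratio to gsto2 differed less, at 33.1 ± 3.0 in DMSO and 38.8 ± 1.71 in 6PPD, and its ranges came within 1 unit of each other (36.5 in DMSO replicate 3, 37.4 in 6PPD replicate 3). Each of these 4 ratios, and those to gstt1a, gstr and gstz1, had an exact permutation p of 0.1, the smallest possible for 3 against 3. The ratios of gstp1 to gstp2 and to gsto1 overlapped between the groups (exact permutation p = 0.5 and 0.6). The change of gstp1 is therefore not shown to differ from that of gstp2 or gsto1. For the other members the test cannot show a difference either, since 0.1 is its floor. As gstp1 itself separated the groups, its ratio to a member with little change was likely to separate too. The 9 ratios share gstp1 and are not independent, and their p-values were not adjusted.

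**Figure D3:**
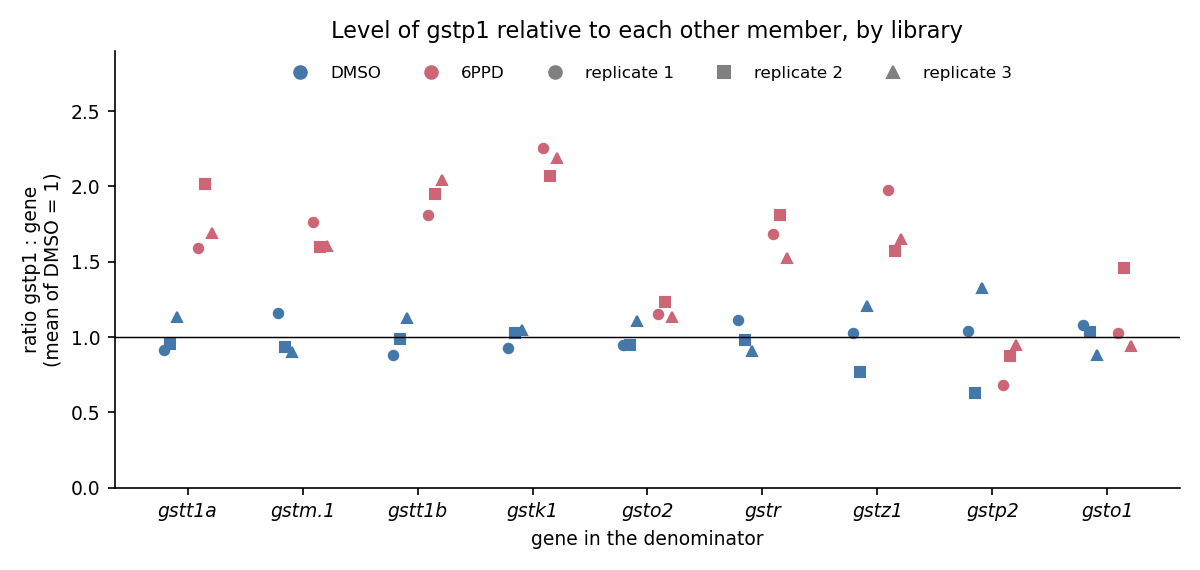
Ratio of the gstp1 level to that of each other member within a library (linear axis from 0), divided by the mean ratio of the DMSO libraries, with DMSO in blue, 6PPD in red and a symbol for each replicate. For gstk1 all 6PPD points lie above 2, and for gstp2 and gsto1 the 2 colours overlap.

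Inside each group the same libraries were often the extreme ones. Within DMSO, replicate 3 held the lowest value for 8 of the 10 genes, beside 23.2% of all tested genes, and replicate 1 the highest for 5 (28.9% of all). Within 6PPD, replicate 1 held the highest value for 9 of the 10, beside 37.0% of all tested genes, and replicate 2 the lowest for 7 (43.6% of all). These counts were not tested. The epidermal marker sum had the same extreme libraries in both groups. It was 10348, 6748 and 5795 FPKM in DMSO replicates 1, 2 and 3. In 6PPD replicates 1, 2 and 3 it was 6561, 5110 and 5876 FPKM. The macrophage and neutrophil marker sum had these extremes too, at 41.0, 33.9 and 25.3 FPKM in DMSO replicates 1, 2 and 3. In 6PPD replicates 1, 2 and 3 that sum was 29.6, 24.3 and 27.1 FPKM. The sum of the Nrf2 regulators and targets described below also had them. Not every list did: the blood marker sum was highest in 6PPD replicate 2 within its group (1168 FPKM). The part of these sums in the member values was not tested. DMSO replicate 3, the control nearest to the treated libraries on the first principal component, had the lowest gstp1 and gsto2 of all 6 libraries, so on these genes it lay farther from the treated group than the other controls did.

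The genes most like each member were found by the root mean square difference of log2(FPKM + 1) over the 6 libraries after centring each gene, among 13900 tested genes with a symbol. The closest to gstp1 were ube2t, a ubiquitin-conjugating enzyme gene (0.0307), spc24 (0.0681), cdca8 (0.07), chtf18 (0.0704) and nuf2 (0.0734). The gene ube2t measured 12.4, 11.8 and 10.1 FPKM in DMSO replicates 1, 2 and 3 and 22.9, 19.3 and 19.9 FPKM in 6PPD replicates 1, 2 and 3. It had the same order of libraries as gstp1 in both groups, which is likely for a gene picked by this likeness. For gsto2 the closest gene was orc4 (0.0548), for gstp2 hoxb5b (0.0887), for gsto1 ints6l (0.0382), and for gstk1 cfl1l (0.0321). For gstt1a, gstt1b, gstm.1, gstr and gstz1 they were adat1 (0.0411), capgb (0.0537), znf1008 (0.012), fance (0.0266) and LRATD2 (0.0584). With 6 libraries in 2 groups, such likeness describes these libraries and no more.

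Beyond the 10 genes, a list of 17 other transferase and related membrane enzyme genes had 15 symbols in the table and 12 tested genes. In limma 0 were called higher and 0 lower, 1 had an unadjusted p under 0.05, and the median log2 fold change was 0.00. The smallest p was that of mgst3b, a membrane-bound glutathione transferase, at 79.3, 68.9 and 55.1 FPKM in DMSO replicates 1, 2 and 3 and 103, 78.6 and 84.4 FPKM in 6PPD replicates 1, 2 and 3. The groups overlapped, since 6PPD replicate 2 lay just under DMSO replicate 1 (log2 fold change 0.39 ± 0.14, limma adjusted p = 0.163). Next was ptges, a prostaglandin E synthase of the same membrane protein family (0.29 ± 0.15, adjusted p = 0.297). The alpha class gene gsta.1, named after its values were seen, averaged 38.2 ± 6.7 FPKM in controls and 34.8 ± 1.41 FPKM in treated heads, above every member except gstp1 in mean level. The other alpha gene listed in the table, gsta.2, lay under the filter at 0.9 ± 0.38 and 0.884 ± 0.109 FPKM.

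The enzymes that make, break down and reduce glutathione did not rise with gstp1. Of 15 tested genes 0 were called higher and 2 lower, with a median log2 fold change of -0.07. The 2 were chac1, which degrades glutathione, from 143 ± 15.7 to 84.1 ± 6.0 FPKM, and slc3a2b, the heavy chain partner of the cystine transporter, from 95.9 ± 9.2 to 57.3 ± 3.49 FPKM (limma adjusted p = 0.00563 and 0.00479). Both were called in all 6 fits with 1 library left out. The cystine transporter gene itself, slc7a11, lay under the filter at 0.725 ± 0.299 FPKM in controls and 0.774 ± 0.103 FPKM in treated heads. The other heavy chain gene, slc3a2a, was lower in every 6PPD library but was not called (-0.11, limma adjusted p = 0.452). These 2 genes are named after their values were seen, and cystine uptake was not measured. The synthesis genes gclc, gclm and gss, named after their values were seen, had log2 fold changes of -0.06, -0.15 and 0.20 (limma adjusted p = 0.718, 0.343 and 0.507). Glutathione reductase, gsr, which restores reduced glutathione, measured 17.5, 9.92 and 10.2 FPKM in DMSO replicates 1, 2 and 3. In 6PPD replicates 1, 2 and 3 it measured 21.0, 17.5 and 16.7 FPKM. It is also named after its values were seen. DMSO replicate 1 lay within the treated range, and the log2 fold change of 0.56 ± 0.19 was not called (limma adjusted p = 0.143). Without DMSO replicate 1 it was called, at 0.81 (limma adjusted p = 0.0108).

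**Figure D4:**
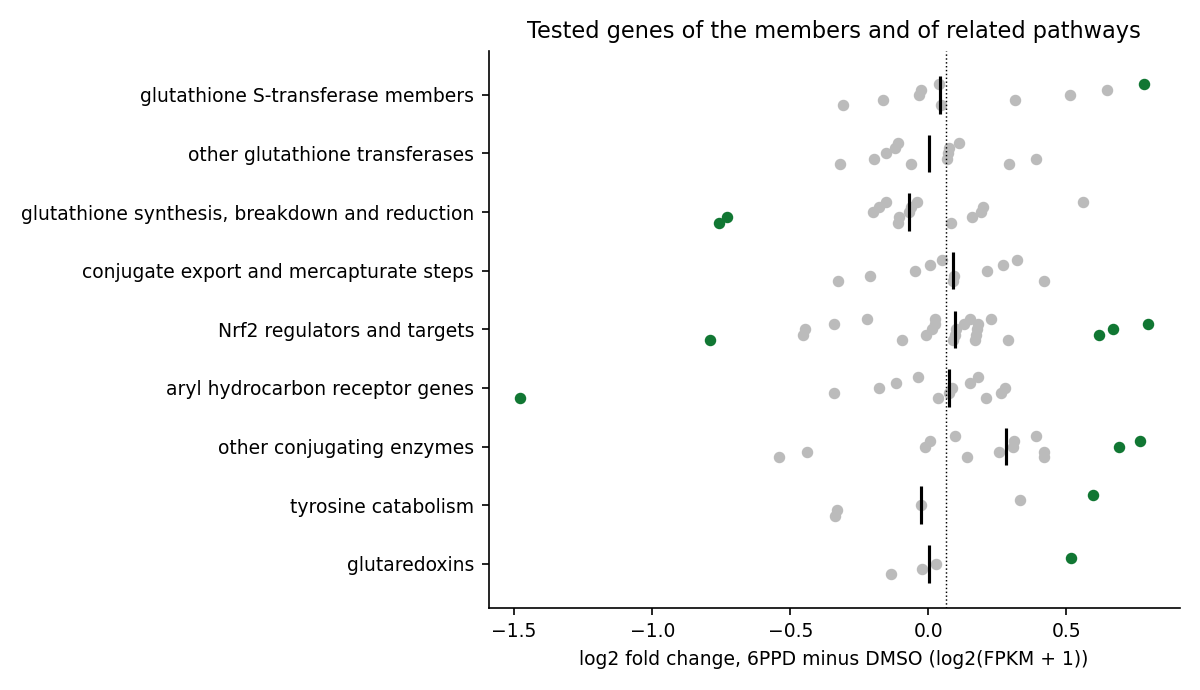
Log2 fold change, 6PPD minus DMSO, of every tested gene of the 10 members and of 8 lists of related genes, with called genes (limma adjusted p under 0.05) in green, a bar at each list's median and a dotted line at the median of all tested genes (0.06). The list medians run from -0.07 to 0.28, and called genes lie on both sides of 0. The gene gstz1 is drawn both as a member and in the list of tyrosine breakdown.

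Among 24 tested Nrf2 regulators and targets, a list that does not hold gstp1, 3 rose and 1 fell, with a median log2 fold change of 0.10. Those that rose were prdx1 (peroxiredoxin; 0.80), txn (thioredoxin; 0.67) and blvrb (biliverdin reductase B; 0.62), and the stress-response gene sesn2 fell (-0.79), with limma adjusted p of 0.0167, 0.0257, 0.0184 and 0.0122. These counts changed with single libraries left out. The share of all tested genes called either way, 3.41% with all 6 libraries, changed too and is given in brackets. Leaving out DMSO replicate 2, limma called 0 higher and 0 lower (1.11%). Leaving out 6PPD replicate 1 gave 0 higher and 1 lower (1.21%). Without 6PPD replicate 2 there were 1 higher and 1 lower (1.38%), and without 6PPD replicate 3 there were 2 higher and 0 lower (1.11%). Leaving out DMSO replicate 1 gave 2 higher and 1 lower (2.98%), and DMSO replicate 3 gave 3 higher and 1 lower (7.4%). The Nrf2 genes themselves, named after their values were seen, were lower in every 6PPD library and were not called. The gene nfe2l2a averaged 8.2 ± 0.935 FPKM in controls and 5.71 ± 0.591 FPKM in treated heads, and nfe2l2b 1.31 ± 0.0425 and 0.695 ± 0.037 FPKM (limma adjusted p = 0.0746 and 0.0917). The adjusted p of nfe2l2a was 0.0402 after median-ratio scaling, 0.0335 after quantile normalization and 0.0339 after cyclic loess. That of nfe2l2b was 0.0495 after quantile normalization and 0.0428 without the intensity trend. The gene nfe2l2b passed the filter only through the DMSO group, where it was higher. The inhibitor genes keap1a and keap1b had log2 fold changes of 0.02 and 0.23 (limma adjusted p = 0.922 and 0.198). Of further listed targets, also named after their values were seen, nqo1 was at -0.22, hmox1a at -0.01, txnrd3 at 0.02 and fth1a at 0.09. On the same scale srxn1 was at 0.17 and gpx1a at 0.29. These were not called (limma adjusted p = 0.384, 0.977, 0.93, 0.716, 0.544 and 0.155 in the order named).

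Other conjugating enzymes and the steps after conjugation were measured in the same way. Of 14 tested sulfotransferase, glucuronosyltransferase and other conjugating genes 2 rose, the thiopurine methyltransferase gene tpmt.2 from 1.59 ± 0.464 to 3.15 ± 0.367 FPKM and ugt1a1 from 1.33 ± 0.185 to 2.97 ± 0.558 FPKM, and 0 fell (limma adjusted p = 0.0447 and 0.0253). With 1 library left out, tpmt.2 kept its call only without DMSO replicate 3 (limma adjusted p 0.0178 to 0.178 over 6 fits) and ugt1a1 only without DMSO replicate 3 or 6PPD replicate 2 (0.0315 to 0.114). With the replicate number as a block both calls were lost (limma adjusted p = 0.0662 and 0.0503). The median log2 fold change of this list was 0.28. Of 11 tested genes for export of conjugates and mercapturate formation limma called 0, and 1 was lower at an unadjusted p under 0.05. Of 4 glutaredoxin genes, whose products are reduced by glutathione, 1 rose, glrx, at 31.2 ± 2.95 FPKM in controls and 45.2 ± 3.91 FPKM in treated heads (0.52 ± 0.10 on the log2 scale, limma adjusted p = 0.0237), and the call was lost without DMSO replicate 2, 6PPD replicate 1 or 6PPD replicate 3 (limma adjusted p up to 0.104), after median-ratio scaling (0.065) and without the intensity trend (0.0582). Its relative glrx2 was at -0.14 (limma adjusted p = 0.563). Of 13 tested genes of the aryl hydrocarbon receptor pathway, through which many aromatic compounds induce detoxifying enzymes, 0 rose and 1 fell, foxq1a (-1.48, limma adjusted p = 0.00138). The median log2 fold change of this list was 0.08, and 8 of the values were positive. Its genes foxq1b (0.28) and cyp1a (-0.18), named after their values were seen, were not called (limma adjusted p = 0.213 and 0.267).

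**Figure D5:**
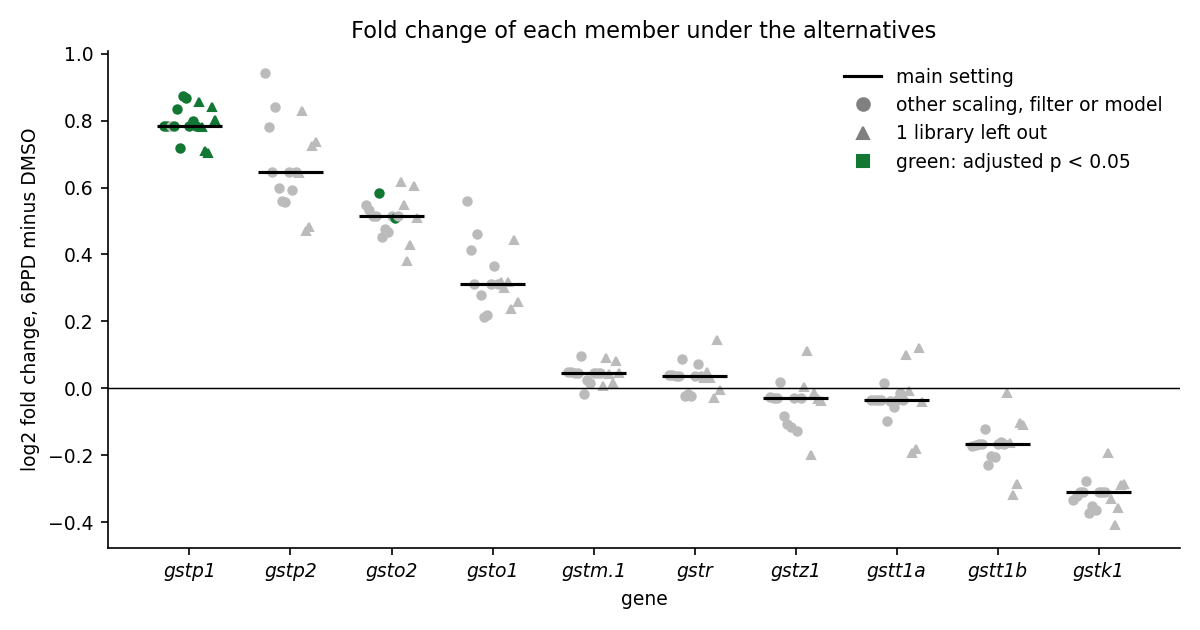
Log2 fold change of each of the 10 genes under up to 17 alternative settings (circles for another scaling, filter or model, triangles for 1 library left out), green where the limma adjusted p is under 0.05, with a bar at the value given in the text. The values of gstp1 lie between 0.70 and 0.87, and those of gstm.1, gstr, gstz1 and gstt1a lie on both sides of 0.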

How the data were processed

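Poly(A) RNA of 6 libraries was sequenced, 3 from 6PPD and 3 from DMSO heads, grouped by the treatment in the labels. The deposited table gives FPKM per gene and library, and gene length, positions (GRCz11) and symbols were taken from it. Per the submitters' processing notes, the tools were StringTie, featureCounts, HISAT2 and fastp (versions and roles not stated). Use of strand by the counting step is likewise not stated. The values are not counts, so no count model was used, and the depth per sample is unknown.

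Genes whose mean level reached 1 FPKM (15320 of 32057) were tested with limma 3.58.1 in R 4.3.3 on log2(FPKM + 1), with variance moderated along an intensity trend (5.56 prior and 4 residual degrees of freedom) and Benjamini-Hochberg adjustment over all tested genes. The procedure was tested on simulated data. Intervals are 95%. Exact permutation tests used the 20 arrangements of 6 libraries. Alternatives were 2 pseudocounts, 2 filters, 4 scalings, limma without trend or with library weights, a replicate block, and each library left out with the tested genes held fixed. The limma p-values set each difference against the spread between these pools, moderated toward the trend over all tested genes.

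The members and lists were chosen with earlier results of these data known. Named genes are the members, the called genes of each list, the 2 smallest p of some lists, neighbours on the chromosome and the most similar profiles. Marker lists of blood and muscle held 0 called genes. Of 6 tested macrophage and neutrophil markers lyz was called lower (-0.82, limma adjusted p = 0.0468). The median log2 fold change of the 6 was -0.12, and 2 values were positive, with mfap4 at 0.35 (limma adjusted p = 0.213). Of 7 endothelial markers plvapb was called lower (-0.40, limma adjusted p = 0.0489). The other direction held for 5 of these 7, with a median of 0.17 and none called higher. The genes lyz and plvapb each kept the call in 1 of the 6 fits with a library left out. Some further list genes were named after their values were seen. A planned look at promoter motifs and proteins was not made here.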

Additional observations from a re-analysis of the deposited data

How the results depend on the processing

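The log2 fold changes of the 10 genes were computed under 17 alternatives, 167 values in all, of which 152 kept their direction and side of the threshold. The number of members called higher was 1, but 0 with no filter on low values (gstp1, adjusted p = 0.071), 2 after rescaling to TPM and 2 with library weights, gsto2 being the second in both (log2 fold changes 0.58 and 0.51). The number called lower was 0 in every setting. The median of the members ranged from -0.02 to 0.13. Small changes turned sign after rescaling to TPM for gstt1a (0.016) and gstz1 (0.019), after median-ratio scaling for gstm.1 (-0.016) and gstr (-0.023), and for gstr after quantile normalization (-0.017) and cyclic loess (-0.022). With 1 library left out, gstt1a ranged from -0.19 to 0.12, gstz1 from -0.20 to 0.11, gstr from -0.029 to 0.14, gstp2 from 0.47 to 0.83 and gstp1 from 0.70 to 0.86. The cause was not tested. With a replicate block, gstp1 had an adjusted p of 0.0119 and gsto2 of 0.0627, and 281 genes were called higher and 174 lower over all genes, against 346 and 176 without it. Same-numbered libraries correlated at 0.03, 0.181 and -0.026 in their deviations from the group means, and differently numbered ones at -0.177 to 0.166. The labels do not say what a shared number means, and these values cannot settle whether the numbers pair the samples. Of the genes called in the lists, all but foxq1a lost their calls with no filter on low values, where far fewer genes were called. Over all genes, leaving out DMSO replicate 3 gave 807 higher and 327 lower calls, leaving out DMSO replicate 2 gave 90 and 80, leaving out 6PPD replicate 1 gave 86 and 99, and dropping the filter gave 13 and 13. With an unknown depth, the values of gsto1 and gstp2 near 1 FPKM carry a counting error that cannot be stated.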
